A study of Ailuropoda melanoleuca with 25 samples.

Results

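A small set of 11 gene models, of 22924 measured, was almost silent in giant panda (Ailuropoda melanoleuca) fibroblasts, was on by day 8 of reprogramming and was still on in the established stem cell lines. The members were chosen by a rule on CPM, the estimated count of a model scaled to the library's total. A member had a group mean below 2 CPM in both fibroblast groups and of 10 CPM or more in each of 5 later groups, with a further condition that neither established line fell far below its day 8 level (a ratio of at least 0.25 to the stage I day 8 mean). The 5 later groups were days 8 and 24 of stage I, day 8 of stage II, and the lines LB GPiPSC and XR GPiPSC. The files name the models by assembly identifiers and pair none of them with a gene, so the members are known here by scaffold and model number, with the prefix "evm.model." left out. No protein or family can be given for any of them, and no sequence of theirs is shown.

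Reprogramming turns a differentiated cell into an induced pluripotent stem cell, which can renew itself and form the tissues of the body. In mouse and human cells the fibroblast programme is shut down first and the stable pluripotency network comes on late. Episomal vectors carry the reprogramming factors as circles that do not insert into the genome and are diluted as cells divide.

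The study sequenced RNA from 25 libraries in 12 groups of cells whose source the labels give as primary fibroblasts for every library. The induced pluripotent stem cells are abbreviated GPiPSC, and the method used episomal vectors that do not integrate. The groups named after an agent were A83-01 day 16 and BACL-CHIR99021, set against control day 16 and BACL control. Beside the 3 stage groups there were the lines LB GPiPSC and XR GPiPSC, a further group named BACL LB GPiPSC, and the starting cells, LB and XR primary fibroblasts (PF). LB GPiPSC had 3 libraries and every other group 2. The meaning of LB, XR and BACL is not in the labels, nor is the LB or XR origin of the stage and day 16 libraries or of the 2 BACL groups without LB in their name. The factors on the vectors and the origin of replicates (separate cultures or not) are not stated either. P-values therefore measure the spread between these libraries only, which may be technical. All groups are bulk RNA, in which fewer cells of a type and less RNA per cell cannot be told apart. With no gene names, the labelled cell types could not be checked against marker genes.

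Library totals ran from 8627983 to 14890260 estimated counts, so 3 counts correspond to 0.201 to 0.348 CPM. Replicate 3 of LB GPiPSC was less like its own group than like the other line, with a Pearson correlation of log2 TMM-scaled CPM across models of 0.982 to 0.983 with the XR GPiPSC libraries and of 0.965 to 0.966 with LB GPiPSC replicates 1 and 2. Without it, HIC_ASM_5.1200 would leave the set, since its LB GPiPSC mean became 9.61 CPM.

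Few of the models on at day 8 were still on in every later group. Of the 22924 models, 10037 were below 2 CPM in both PF groups and 110 of these had reached 10 CPM at stage I day 8. Of the 110, 45 were also at 10 CPM or more at stage I day 24, 21 also at stage II day 8, 14 also in LB GPiPSC and 12 also in XR GPiPSC. The last condition, on the ratio to day 8, removed only HIC_ASM_16.279, which stood at 45.0 CPM at stage I day 8 and at 11.1 CPM in XR GPiPSC. The members nearest to the lower threshold were HIC_ASM_16.2325 and HIC_ASM_0.155, with XR PF means of 1.68 and 1.57 CPM, and the models just past it were HIC_ASM_1.1837 and HIC_ASM_7.549, at 2.04 and 3.15 CPM in XR PF. Nearest to the upper threshold were HIC_ASM_16.2325 with 11.02 CPM at stage I day 8 and HIC_ASM_12.1587 with 11.6 CPM in LB GPiPSC. Just short of it were HIC_ASM_0.633, at 9.09 CPM at stage I day 8, and HIC_ASM_1.1119, at 8.33 CPM at stage I day 24. These levels chose the set, so the levels in these 7 groups are given below as a description, without tests.

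Silence in the fibroblasts was close to complete for some members and partial for others. HIC_ASM_5.1200 had 2 estimated counts over the 4 PF libraries together and HIC_ASM_0.954 had 8. HIC_ASM_1.1798 and HIC_ASM_17.451 had 0 counts in both LB PF libraries, with 8 and 1 counts in XR PF replicates 1 and 2 for the first and 7 in each for the second. HIC_ASM_12.1587 was the member with the most PF reads, 12 and 13 counts in the LB fibroblasts and 14 and 19 in the XR fibroblasts, and its stage I day 8 mean was 13.0 times its pooled PF level. HIC_ASM_16.2325 and HIC_ASM_0.155 had 1 to 3 counts in the LB PF libraries and 16 to 30 in the XR PF libraries, so their fibroblast reads lay almost wholly in XR PF.

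In 4 of the members the mean of the lines was more than 2 times that at day 8 in CPM. HIC_ASM_0.954 had 0.163 and 0.116 CPM in the LB fibroblasts and 0.0703 and 0.269 CPM in the XR fibroblasts, then 36.9 and 31.3 CPM at stage I day 8, 489 and 397 CPM at day 24 and 1301 and 1472 CPM at stage II day 8. In the lines it stood at 718, 1370.03 and 1109 CPM in LB GPiPSC and at 903 and 1029 CPM in XR GPiPSC. The libraries of each step up to stage II day 8 lay above all those of the step before. The line libraries were within or below the stage II range in CPM. With TMM scaling, which also corrects for library composition, all of them lay below it. The lines then had 540 to 1056 TMM-scaled CPM and stage II day 8 had 1740 and 2218.

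**Figure D1:**
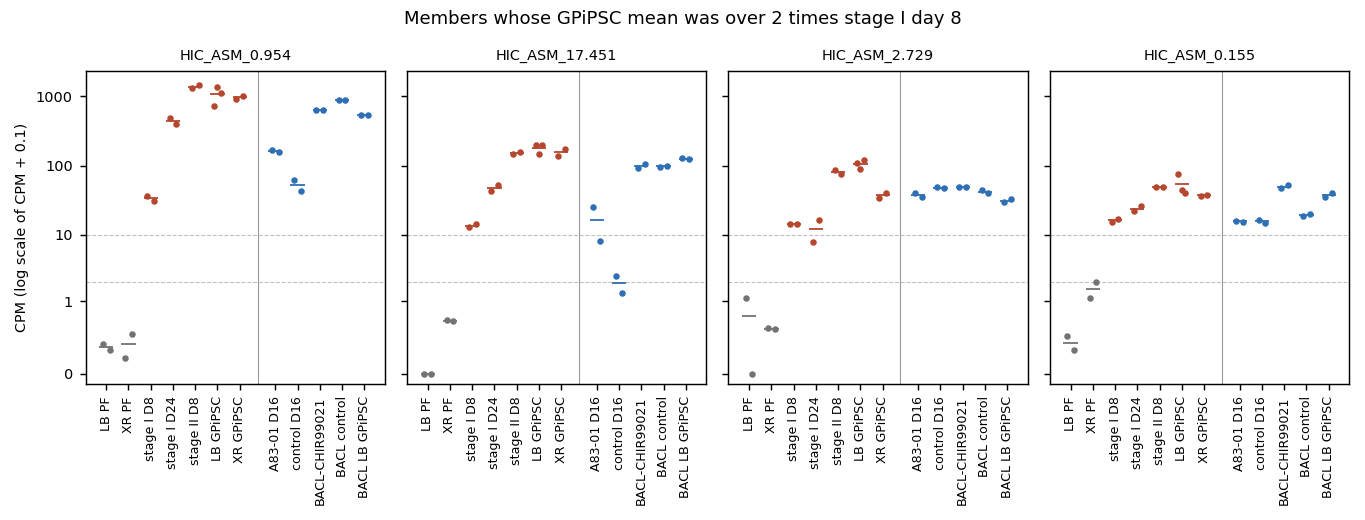
CPM of the 4 members whose mean over LB and XR GPiPSC was over 2 times that at stage I day 8, on a log axis of CPM + 0.1; points are libraries, bars are group means, and dashed lines mark 2 and 10 CPM. Grey and red groups (left of the vertical line) were used to choose the members and blue groups were not; in control day 16, HIC_ASM_17.451 lies at 1.37 and 2.45 CPM, far below its stage I day 8 libraries at 13.0 and 14.1 CPM.

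HIC_ASM_17.451 took the same course at a lower level. It stood at 13.0 and 14.1 CPM at stage I day 8, at 42.4 and 53.1 CPM at day 24 and at 148 and 157 CPM at stage II day 8. LB GPiPSC had 196, 148 and 197 CPM and XR GPiPSC 139 and 174 CPM, so both lines overlapped stage II in CPM. In TMM-scaled CPM they did not: the lines had 111 to 149 and stage II day 8 had 198 and 236. HIC_ASM_2.729 had 14.3 and 14.4 CPM at stage I day 8, 7.82 and 16.5 CPM at day 24, on either side of day 8, and 86.6 and 75.3 CPM at stage II day 8. In TMM-scaled CPM both of its day 24 libraries, at 10.96 and 15.8, lay below both day 8 libraries, at 23.0 and 20.7. HIC_ASM_2.729 was also the member that differed most between the lines in favour of LB, with 109.7, 90.6 and 119 CPM in LB GPiPSC and 33.8 and 40.9 CPM in XR GPiPSC. HIC_ASM_0.155 had smaller steps, with 15.5 and 17.1 CPM at stage I day 8, 21.7 and 25.7 CPM at day 24, 48.4 and 49.3 CPM at stage II day 8, 76.3, 44.6 and 40.2 CPM in LB GPiPSC and 36.1 and 38.1 CPM in XR GPiPSC. With TMM scaling its day 24 libraries, at 30.5 and 24.6, overlapped those of day 8, at 24.9 and 24.6. On that scale its lines, at 29.0 to 57.3, lay below stage II day 8, at 64.8 and 74.3.

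In the other 7 members the mean of the lines was within a factor of 2 of day 8 in CPM. HIC_ASM_16.2160 stood at 71.9 and 113 CPM at stage I day 8, 29.2 and 77.6 CPM at day 24 and 47.4 and 47.2 CPM at stage II day 8. It then stood at 96.2, 72.2 and 98.9 CPM in LB GPiPSC and at 79.6 and 92.8 CPM in XR GPiPSC. Its neighbour by number, HIC_ASM_16.2161, stood at 66.3 and 93.5 CPM at stage I day 8, 37.2 and 67.4 CPM at day 24, 44.9 and 35.3 CPM at stage II day 8, 73.9, 58.1 and 63.6 CPM in LB GPiPSC and 70.8 and 75.7 CPM in XR GPiPSC. In both, the stage II libraries lay below the day 8 libraries, and the line libraries overlapped day 8 in CPM. In TMM-scaled CPM the lines lay below day 8, with 55.6 to 74.7 in the lines and 116 and 163 at stage I day 8 for HIC_ASM_16.2160, and 44.8 to 60.9 and 107 and 135 for HIC_ASM_16.2161.

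HIC_ASM_1.1798 was the member with the highest mean at stage I day 8, and the least steady. Its libraries stood at 76.5 and 155 CPM at stage I day 8, 17.2 and 103 CPM at day 24, 37.7 and 20.6 CPM at stage II day 8, 30.8, 51.9 and 61.0 CPM in LB GPiPSC and 79.3 and 65.8 CPM in XR GPiPSC. The day 24 replicates differed by a factor of 5.97 in CPM, the widest gap in CPM between replicates of any member in the 5 later groups. The factors that scale these 2 libraries for composition also differed, 0.714 in replicate 1 and 1.05 in replicate 2. With these factors applied, the replicates stood at 24.1 and 98.3 TMM-scaled CPM. The cause of the gap was not tested.

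The remaining members had no library above 44.6 CPM in the 5 later groups. HIC_ASM_2.828 stood at 17.0 and 21.1 CPM at stage I day 8, 17.0 and 15.97 CPM at day 24, 13.5 and 10.4 CPM at stage II day 8, 10.3, 22.5 and 30.2 CPM in LB GPiPSC and 43.2 and 44.6 CPM in XR GPiPSC. HIC_ASM_5.1200 stood between 13.8 and 25.6 CPM in the 6 stage libraries, at 6.46, 12.8 and 28.5 CPM in LB GPiPSC and at 31.1 and 30.8 CPM in XR GPiPSC. In both, LB GPiPSC replicate 3 was the highest of its group and the nearest to XR GPiPSC. HIC_ASM_16.2325 ranged from 10.4 to 22.5 CPM over the 11 libraries of the 5 later groups, the narrowest range of the set. HIC_ASM_12.1587 ranged from 9.48 CPM in LB GPiPSC replicate 1 to 33.7 CPM in stage I day 24 replicate 1.

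**Figure D2:**
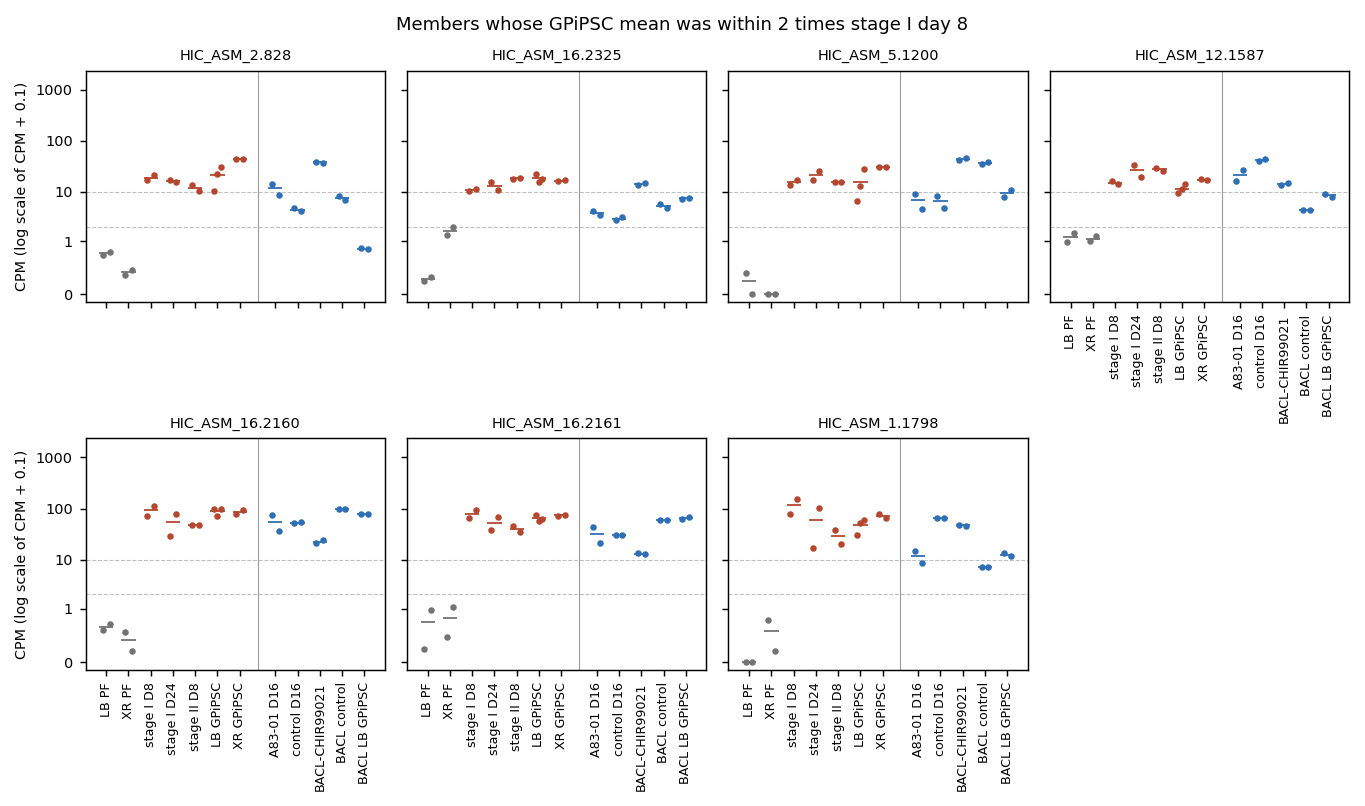
CPM of the 7 members whose mean over LB and XR GPiPSC was within 2 times that at stage I day 8, on a log axis of CPM + 0.1; points are libraries, bars are group means, and dashed lines mark 2 and 10 CPM. Grey and red groups were used to choose the members and blue groups were not; HIC_ASM_2.828 lies at 0.695 and 0.669 CPM in BACL LB GPiPSC, and HIC_ASM_16.2160 and HIC_ASM_16.2161 are lower in BACL-CHIR99021 than in BACL control.

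The difference of a member between day 8 and the lines depended on the scale. CPM divides by the library total, whereas TMM factors also correct for composition, and their mean was 1.28 over the GPiPSC groups and 0.659 at stage I day 8, a shift of 0.96 on the log2 scale. The ratio of the GPiPSC mean to the stage I day 8 mean had a median over the 11 members of 1.60 in CPM and of 0.820 in TMM-scaled CPM, with 7 members above 1 in CPM and 4 in TMM-scaled CPM. HIC_ASM_0.954 had a ratio of 29.8 in CPM and 15.2 in TMM-scaled CPM, HIC_ASM_17.451 12.4 and 6.36, HIC_ASM_2.729 4.997 and 2.53, and HIC_ASM_0.155 2.78 and 1.42. These 4 were above 1 on both scales. HIC_ASM_2.828, HIC_ASM_16.2325 and HIC_ASM_5.1200 had ratios of 1.70, 1.60 and 1.504 in CPM but of 0.889, 0.820 and 0.783 in TMM-scaled CPM. The ratio of HIC_ASM_12.1587 was 0.956 in CPM and 0.491 in TMM-scaled CPM, that of HIC_ASM_16.2160 0.947 and 0.491, and that of HIC_ASM_16.2161 0.867 and 0.449. HIC_ASM_1.1798 had the lowest ratio on both scales, 0.519 and 0.273. So 7 members were within a factor of 2 of day 8 in CPM and 0 were lower than that, but in TMM-scaled CPM 4 were within it, 4 were lower and 3 were higher. When the rule was applied to TMM-scaled CPM it again took 11 models, of which 7 were members, and HIC_ASM_0.155, HIC_ASM_1.1798, HIC_ASM_12.1587 and HIC_ASM_16.2325 were replaced by 4 others.

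Per length, HIC_ASM_0.954 was far above the rest, with a mean of 486 TPM, the authors' length-scaled unit, over the 5 later groups. HIC_ASM_16.2160 and HIC_ASM_12.1587 followed with 26.8 and 26.1 TPM, and the other members lay lower, down to 4.85 TPM. The lead of HIC_ASM_0.954 did not hold at stage I day 8, where it had 23.7 TPM against 36.2 TPM for HIC_ASM_16.2160. Its highest group mean was 804 TPM, at stage II day 8. The long model HIC_ASM_17.451, high in CPM, had 7.77 TPM. Over the 5 later groups its level per length ran from 1.07 TPM at stage I day 8 to 12.3 TPM in LB GPiPSC.

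The lines did not share 1 level for every member. XR GPiPSC lay above LB GPiPSC with no overlap of libraries in 4 members, HIC_ASM_2.828, HIC_ASM_5.1200, HIC_ASM_12.1587 and HIC_ASM_1.1798, where 16.8% of models at 10 CPM or more in either group did so. It lay below with no overlap in 2, HIC_ASM_2.729 and HIC_ASM_0.155, where 29.9% did. In TMM-scaled CPM these counts were 5 and 1. Both groups entered the rule, so nothing is read from these counts. The ratio of the XR to the LB GPiPSC mean was 2.09 for HIC_ASM_2.828 and 1.94 for HIC_ASM_5.1200, and 2.67 and 3.22 without LB GPiPSC replicate 3.

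The members HIC_ASM_16.2160 and HIC_ASM_16.2161 carry consecutive numbers on 1 scaffold, the only such pair in the set. Their coding lengths are 1542 and 3015 bases. In the 21 libraries other than PF the CPM of HIC_ASM_16.2160 divided by that of HIC_ASM_16.2161 had a median of 1.30 and stayed between 0.784, in stage I day 24 replicate 1, and 1.83, in BACL-CHIR99021 replicate 2. Over the same libraries HIC_ASM_16.2160 itself ran from 20.7 to 113 CPM. The models on either side did not share this course. HIC_ASM_16.2159 stood at 11.3 CPM at stage I day 8, against 20.3 CPM in the LB and 15.8 CPM in the XR fibroblasts. HIC_ASM_16.2162 stood at 321 CPM at stage I day 8 and 12.5 CPM in LB GPiPSC, against 83.7 CPM in LB PF. The estimated counts cannot separate reads shared by near-identical or overlapping models, and the pair may not be 2 independent measurements. Estimated counts can hold fractions, as for HIC_ASM_0.954 (8334.93 in LB GPiPSC replicate 1), but those of the pair were whole numbers in all 25 libraries. Whether the pair shares reads was not tested.

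**Figure D3:**
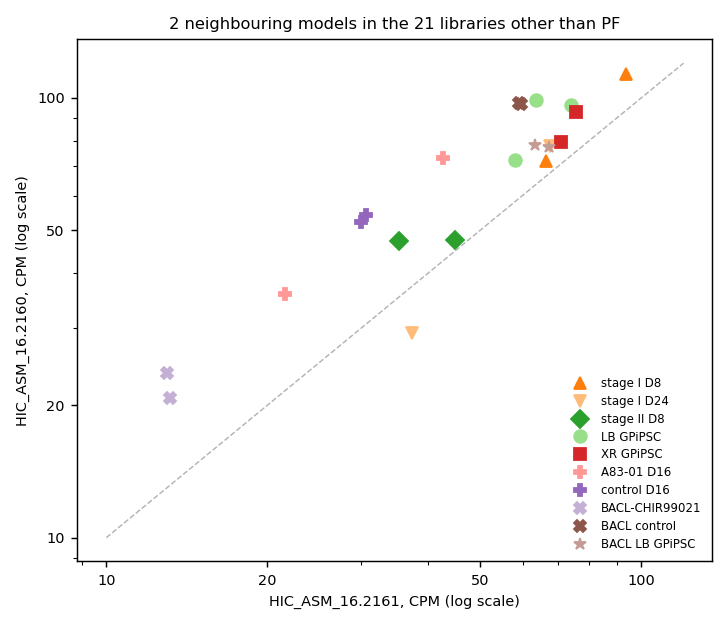
CPM of HIC_ASM_16.2160 (vertical, log axis) against HIC_ASM_16.2161 (horizontal, log axis) in the 21 libraries other than PF, 1 point a library; the dashed line marks equal CPM. Points high on one axis are high on the other, with BACL-CHIR99021 lowest on both axes at 20.7 and 23.7 CPM and 13.2 and 13.0 CPM.

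Elsewhere the members were scattered. The 11 lay on 7 scaffolds, with 3 on HIC_ASM_16, which holds 1684 models, and 2 each on HIC_ASM_0 and HIC_ASM_2. Of 8 adjacent numbers held by models that are not members, 5 stood at 10 CPM or more in a PF group, 2 were below 2 CPM in all 12 groups and 0 were off in PF and at 10 CPM at stage I day 8. The one neighbour that was off in both PF groups and on later was HIC_ASM_2.728, next to HIC_ASM_2.729, with 2.90 CPM at stage I day 8, 39.4 CPM in LB GPiPSC and 17.8 CPM in XR GPiPSC. Coding lengths ran from 642 bases in HIC_ASM_12.1587 to 6150 bases in HIC_ASM_17.451, and all 11 were multiples of 3. Their median was 1599 against 1017 over all models. The rule used CPM, which is not divided by length and so favours long models, and nothing is read from this difference. The models most like the members' mean in log2 CPM over the 25 libraries, among 12393 others, were HIC_ASM_1.1837 and HIC_ASM_1.754, with Pearson correlations of 0.947 and 0.942. The first is the model that failed the rule with 2.04 CPM in XR PF. The 25 libraries fall into groups with PF far from the rest, so these correlations are a description only.

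The rule did not use 5 of the groups. At 10 CPM or more were 9 members in A83-01 day 16 and 7 in control day 16, 11 in BACL-CHIR99021 and 7 in BACL control, and 7 in BACL LB GPiPSC. Of all models, 42.0%, 39.7%, 42.4%, 39.6% and 40.02% were at that level in these groups, in the same order. Of all 110 models that were off in PF and on at stage I day 8, 41.8% in A83-01 day 16 and 54.5% in control day 16 were at that level, and 23.6%, 15.5% and 13.6% in BACL-CHIR99021, BACL control and BACL LB GPiPSC. Of the 372 models off in PF and on in both GPiPSC lines, the shares were 23.1% in A83-01 day 16 and 7.53% in control day 16, and 74.2%, 65.6% and 65.6% in the 3 BACL groups, in the order just given. The members belong to both of these larger sets, and no difference from them was tested. By library, 9 and 6 members were at that level in A83-01 day 16 replicates 1 and 2, and 7 and 7 in control day 16.

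Control day 16 stood under 10 CPM for 4 members. Of the 11, 7 were lower in control day 16 than at stage I day 8 with no overlap of libraries, where 33.7% of models at 10 CPM or more in either group were, and 3 were higher, where 57.5% were. In TMM-scaled CPM 8 were lower and 2 higher. The day 8 libraries entered the rule and the labels do not say that day 16 belongs to the same course, so nothing is read from these counts. HIC_ASM_17.451 was at 2.45 and 1.37 CPM in control day 16, against 13.0 and 14.1 CPM at stage I day 8. HIC_ASM_16.2325, HIC_ASM_2.828 and HIC_ASM_5.1200 were also under 10 CPM, at 2.70 and 3.16, 4.73 and 4.19, and 8.11 and 4.87 CPM. In the other direction HIC_ASM_12.1587 had its highest level of the series in control day 16, 40.4 and 43.6 CPM.

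A83-01 inhibits type I receptors of the TGF-β family, a pathway that holds cells in a mesenchymal state and whose inhibition is used in reprogramming media. A83-01 day 16 was compared with control day 16, neither of which entered the rule. Of the 11 members, 2 rose with A83-01 and 1 fell, and 8 did not pass the test (edgeR's quasi-likelihood test, adjusted p under 0.05 over 17225 models). In all models 6.22% were called, 4.19% higher and 2.04% lower. The members' median log2 fold change was -0.09, against 0.04 over all models. That sign turned on the A83-01 library: the members' median was -0.55 without A83-01 replicate 1 and 0.25 without A83-01 replicate 2.

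HIC_ASM_17.451 stood at 25.0 and 8.13 CPM with A83-01, against 2.45 and 1.37 CPM in control. Both A83-01 libraries lay above both controls and their SD was 11.97 CPM around a mean of 16.6 CPM. The log2 fold change was 2.92 ± 0.38 (SE; edgeR adjusted p = 0.000139). It was 2.00 without A83-01 replicate 1 and 0.95 on the log2(TPM + 1) scale, which understates changes of low models. HIC_ASM_0.954 stood at 170.1 and 159 CPM with A83-01, against 62.0 and 43.2 CPM in control, a log2 fold change of 1.501 ± 0.32 (SE; edgeR adjusted p = 0.00645). This call was lost without control replicate 2 (edgeR adjusted p = 0.150). These 2 are also the members with the highest ratio of the lines to day 8. The next by that ratio, HIC_ASM_2.729 and HIC_ASM_0.155, had log2 fold changes of -0.50 and -0.14 and were not called. The ratio comes from groups that entered the rule, and a link between it and A83-01 was not tested.

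HIC_ASM_1.1798 went the other way. It stood at 14.7 and 8.43 CPM with A83-01, against 65.2 and 64.7 CPM in control, and fell by 2.66 ± 0.53 (SE) on the log2 scale (edgeR adjusted p = 0.00437). Without A83-01 replicate 2 it was not called (edgeR adjusted p = 0.0643). Libraries did not overlap in 4 further members, but the share of all models without overlap was not counted, so nothing is read from this. HIC_ASM_2.828 and HIC_ASM_12.1587 had log2 fold changes of 1.22 ± 0.38 and -1.06 ± 0.36 (SE), which missed the threshold with edgeR adjusted p-values of 0.0629 and 0.0995. DESeq2 called HIC_ASM_2.828 (adjusted p = 0.0370), and limma called HIC_ASM_12.1587 lower on log2(TPM + 1) and log2(TPM + 0.1) (adjusted p = 0.00438 and 0.00853). A fit of the 4 libraries alone called both. HIC_ASM_2.729 and HIC_ASM_16.2325 had log2 fold changes of -0.50 ± 0.35 and 0.23 ± 0.36 (SE; edgeR adjusted p = 0.596 and 0.904), and the fit of 4 libraries called HIC_ASM_2.729. HIC_ASM_16.2160 and HIC_ASM_16.2161 split with the A83-01 replicates, at 73.2 and 42.6 CPM in replicate 1 and 35.8 and 21.6 CPM in replicate 2, on both sides of the control libraries at 52.3 and 54.0 CPM and at 29.9 and 30.6 CPM. HIC_ASM_0.155 was level, with 15.7 and 15.4 CPM with A83-01, against 16.3 and 14.8 CPM in control. Over all models, 1072 were called, and 373 without A83-01 replicate 1, 380 without control replicate 1 and 302 without control replicate 2.

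**Figure D4:**
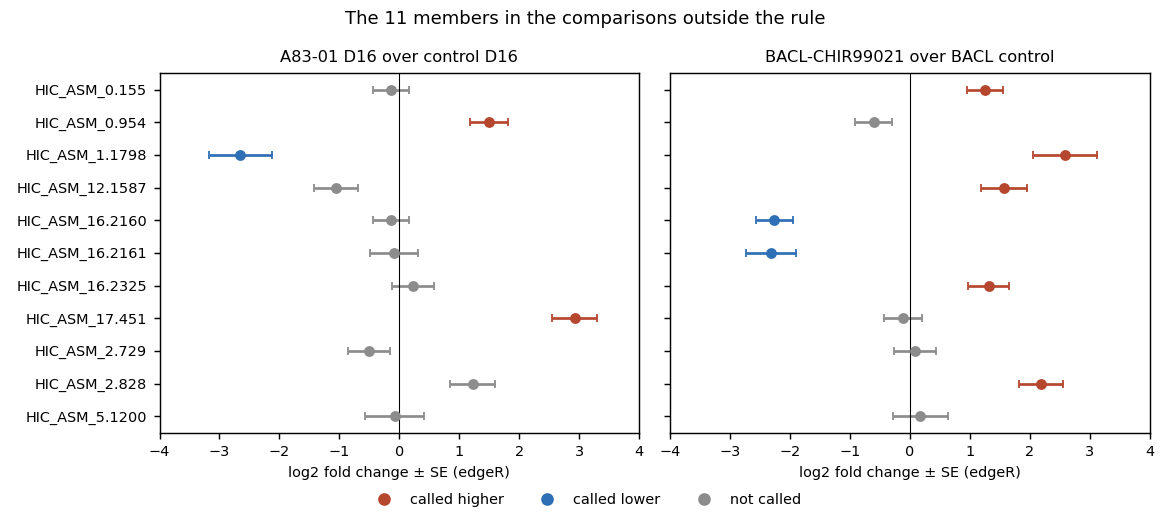
Log2 fold change with its SE (edgeR) of the 11 members in A83-01 day 16 over control day 16 (left) and in BACL-CHIR99021 over BACL control (right), with 2 libraries a group; red was called higher and blue lower at an adjusted p under 0.05. HIC_ASM_1.1798 was called lower on the left and higher on the right, and HIC_ASM_16.2160 and HIC_ASM_16.2161 were called lower on the right.

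CHIR99021 inhibits the kinase GSK3, and this stabilises β-catenin and activates WNT target genes. Whether CHIR99021 was added or left out in BACL-CHIR99021 is not in the labels, so no direction of CHIR99021 itself can be read from this comparison. BACL-CHIR99021 differed from BACL control in 7 of the 11 members, 5 higher and 2 lower, where 16.1% of all models were called, 11.7% higher and 4.43% lower. The median log2 fold change of the members was 0.17, against 0.00 over all models.

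The 2 members that fell were the neighbouring pair. HIC_ASM_16.2160 stood at 20.7 and 23.7 CPM in BACL-CHIR99021, against 96.7 and 97.5 CPM in BACL control, a log2 fold change of -2.26 ± 0.31 (SE; edgeR adjusted p = 4.6e-05). HIC_ASM_16.2161 stood at 13.2 and 13.0 CPM in BACL-CHIR99021, against 59.6 and 59.2 CPM in BACL control, a log2 fold change of -2.31 ± 0.42 (SE; edgeR adjusted p = 0.000603). BACL-CHIR99021 was the lowest of the 10 groups other than PF for both.

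HIC_ASM_1.1798 rose to 48.0 and 46.1 CPM in BACL-CHIR99021, against 7.05 and 7.25 CPM in BACL control, a log2 fold change of 2.58 ± 0.53 (SE; edgeR adjusted p = 0.00220). HIC_ASM_2.828 rose to 38.7 and 37.1 CPM, against 8.14 and 7.03 CPM in BACL control, a log2 fold change of 2.19 ± 0.37 (SE; edgeR adjusted p = 0.000354). HIC_ASM_12.1587, HIC_ASM_16.2325 and HIC_ASM_0.155 rose less, by 1.57 ± 0.38, 1.31 ± 0.33 and 1.25 ± 0.30 on the log2 scale (SE), with edgeR adjusted p-values of 0.00701, 0.00991 and 0.00644. These 3 lost the call when a BACL control library was left out, with edgeR adjusted p-values of 0.0551 to 0.0907 without replicate 1 and 0.0683 to 0.137 without replicate 2, and the members called were then 4. HIC_ASM_16.2325 and HIC_ASM_0.155 also lost it without BACL-CHIR99021 replicate 2 (0.0743 and 0.0669).

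The members that rose included all 4 that stood under 10 CPM in BACL control. BACL control is the reference here, so picking members low in it favours a rise, and nothing is read from this. HIC_ASM_17.451 did not pass the test, with 93.9 and 105 CPM in BACL-CHIR99021, against 96.5 and 100.5 CPM in BACL control. HIC_ASM_0.954 stood at 639 and 641 CPM, against 886 and 890.5 CPM in BACL control, a log2 fold change of -0.61 ± 0.31 (SE; edgeR adjusted p = 0.215). HIC_ASM_5.1200 had a log2 fold change of 0.17 ± 0.46 (SE; edgeR adjusted p = 0.875). The test pools the spread over all 12 groups. A fit of these 4 libraries alone called HIC_ASM_0.954 lower and HIC_ASM_5.1200 higher, but it called 10609 models in all. Over all models, 2773 were called, and 1319 and 1332 without BACL control replicates 1 and 2 and 1570 and 1539 without BACL-CHIR99021 replicates 1 and 2.

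BACL LB GPiPSC carry the LB label of LB GPiPSC, whose levels entered the rule, so their values are given side by side without a test. Of the 11 members, 8 were lower in BACL LB GPiPSC than in LB GPiPSC with no overlap of libraries and 0 were higher. Of models at 10 CPM or more in either group, 29.9% were lower and 24.4% higher. In TMM-scaled CPM 6 members were lower. The members were chosen for 10 CPM or more in LB GPiPSC, which favours a lower level in BACL LB GPiPSC, so nothing is read from these counts. HIC_ASM_2.828 was nearly off in BACL LB GPiPSC, at 0.695 and 0.669 CPM, against 10.3, 22.5 and 30.2 CPM in LB GPiPSC. It was the only member under 2 CPM in any BACL group. HIC_ASM_2.729 stood at 29.8 and 32.5 CPM in BACL LB GPiPSC, against 109.7, 90.6 and 119 CPM in LB GPiPSC. HIC_ASM_1.1798 stood at 13.4 and 11.6 CPM in BACL LB GPiPSC, against 30.8, 51.9 and 61.0 CPM in LB GPiPSC. HIC_ASM_16.2160 and HIC_ASM_16.2161 had 78.2 and 77.4 CPM and 63.3 and 67.2 CPM in BACL LB GPiPSC, within the range of the LB GPiPSC libraries.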

How the data were processed

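Reads were assigned to gene models by kallisto, per the submitters' processing notes, with no version or index given in the sources used here. The deposited table of a library lists its models, 22924 in number, with their lengths and, per the file headers, 1 estimated count and 1 TPM value each. CPM was taken from the deposited estimated counts by column sum, and tests used these counts rounded to whole numbers. The authors' TPM values gave the levels per length and some alternatives. Of the model identifiers, 0 occur in the RefSeq table at hand (ASM200744v3). Model lengths are multiples of 3 in 91.6% of cases and are called coding lengths.

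Sample titles gave group and replicate. edgeR 4.0.16 (R 4.3.3) fitted the 12 groups together (25 libraries, 13 residual degrees of freedom), after filterByExpr (17225 models kept) and TMM scaling, with a robust quasi-likelihood F test and Benjamini-Hochberg adjustment over every model kept. SEs were derived from the F statistic. The fitting step was tested on simulated counts. Members and lists were chosen with earlier results of these data known. The naming rule took members by level per length, day 8 level, ratio of lines to day 8, line difference, replicate gap, threshold, consecutive numbers and test result, plus the 2 most similar other models (log2 CPM, prior count 2). The remaining members, HIC_ASM_16.279 and the neighbouring models were named after their values were seen.

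Alternatives were RLE scaling, DESeq2 1.42.0, dropping the filter, fitting 4 libraries alone, a replicate block, limma 3.58.1 on log2(TPM + 1) or log2(TPM + 0.1), other thresholds and scales for the rule, and omission of single libraries, where a lone library is assumed to vary like other groups. The floor of 3 counts covers counting error only.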

Additional observations from a re-analysis of the deposited data

How the results depend on the processing

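The set depends on its thresholds and scale: 4 models met the rule on TPM, of which 3 were members. With every library past the thresholds the set held 6, and with 20 CPM or more in each later group 4, against 11 as given. With each library left out it held 10 to 12 models. The number of members at 10 CPM or more in the 5 further groups stayed within 1.5 times under TMM scaling and without either library. The order of A83-01 day 16 and control day 16 still turned on 1 library: replicates 1 and 2 had 9 and 6 with A83-01, and 7 and 7 in control. In A83-01 day 16 against control day 16, the models called were 2233 with only the 4 libraries compared and 2945 with a replicate block in that fit, against 1072, and 302 to 788 with a library left out; the members called were 6, 6 and 2 to 3, against 3. With only these 4 libraries 49.1% of calls were higher, with the block 50.3%, on log2(TPM + 1) 57.2% and without A83-01 replicate 2 81.2%, against 67.3%. In BACL-CHIR99021 against BACL control, 10609 and 10455 models were called in those 2 fits, against 2773, and 1319 to 1570 with a library left out; the members called were 9 in both fits and 4 to 7 with a library left out, against 7. The share of higher calls was 51.3% in both fits, 85.3% on log2(TPM + 0.1), 84.2% and 84.3% without BACL-CHIR99021 replicates 1 and 2, against 72.5%. Deviations of same-numbered libraries correlated at -0.00453 and 0.00960, so the numbers are not taken to pair libraries. Of 242 values of single members under alternatives, 212 kept their direction and their side of the threshold, 10 lost a call and 13 gained one. The other 7 changed sign, none of them called on either side: with a library left out, the A83-01 log2 fold change ran from -0.59 to 0.33 for HIC_ASM_5.1200 (higher without control replicate 1 or A83-01 replicate 2), from -0.57 to 0.25 for HIC_ASM_16.2161 and from -0.66 to 0.22 for HIC_ASM_16.2160 (both higher without A83-01 replicate 2). For BACL-CHIR99021, HIC_ASM_2.729 ran from -0.0225, without BACL control replicate 2, to 0.15, and HIC_ASM_17.451 (-0.12) was 0.12 on log2(TPM + 1) and 0.14 on log2(TPM + 0.1). The cause was not tested. Depth limits the PF levels, where several members have 3 counts or fewer.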
